A study of Mus musculus with 21 samples.

Results

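The comparison set 3 libraries of mouse bone marrow macrophages exposed for 4 h to an isotype control protein against 3 libraries of the same cells left untreated at 0 h. These are 6 of the 21 libraries of a series on the soluble mannose receptor, and they were chosen by their labels alone. In the series, cells without a working mannose receptor received either FcMR, a fusion of the Fc region of human IgG1 with the extracellular region of the receptor, or the isotype control, and RNA was sequenced after 4 h, 12 h and 24 h. All groups share the C57BL/6J background, the receptor deficiency and the culture, which was 7 days of bone marrow in medium with 2.5% of the supernatant of cells that produce GM-CSF. The untreated group is the state at the start of treatment, and no untreated library at 4 h was analysed here. Contact with the protein, the handling at its addition and 4 h more in culture therefore cannot be told apart. Neither the make nor the dose of the isotype control is given in the sources used here. The labels number the replicates of each group 1 to 3 without naming separate mice or cultures, so each p-value measures the spread between these samples, which may be technical.

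GM-CSF is a growth factor under which bone marrow precursors become macrophages and cells with dendritic features. Macrophages carry Fc receptors for immunoglobulin and Toll-like receptors for microbial products. Signals from such receptors reach NF-kB, which drives cytokine and chemokine genes, and interferon regulatory factors, which drive interferon beta. Secreted interferon acts back on the cells through its receptor and turns on a large set of antiviral genes, many of which carry the interferon-stimulated response element, built on repeats of GAAA, in their promoters. NF-kB binds sites that resemble GGGAATTTCC.

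Promoters of 6 genes that rose in these pathways are shown because their sequences carry the motif letters of interferon-stimulated genes or of NF-kB sites. They are RefSeq windows on GRCm38.p6, each 300 bases long, from 250 bases before to 50 bases after the annotated start, in the direction of the gene. Capitals mark matches, on either strand, to GAAA, any 2 bases and GAAA in the first 4 (the interferon motif), and to GGGA, any base and TTTCC in the last 2 (the NF-kB motif). The windows are Ifit1 at chr19:34640639-34640938 on the plus strand, Rsad2 at chr12:26456403-26456702 on the minus strand, Isg15 at chr4:156200769-156201068 on the minus strand and Cxcl10 at chr5:92348840-92349139 on the minus strand. Cxcl2 lies at chr5:90903649-90903948 on the plus strand and Il6 at chr5:30012864-30013163 on the plus strand.
Ifit1: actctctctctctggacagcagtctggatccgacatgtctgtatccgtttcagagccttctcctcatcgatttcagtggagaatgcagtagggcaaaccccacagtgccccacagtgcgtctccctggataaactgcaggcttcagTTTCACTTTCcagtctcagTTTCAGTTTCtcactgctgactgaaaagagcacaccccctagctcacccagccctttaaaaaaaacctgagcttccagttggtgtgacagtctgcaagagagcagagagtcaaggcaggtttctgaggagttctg
Rsad2: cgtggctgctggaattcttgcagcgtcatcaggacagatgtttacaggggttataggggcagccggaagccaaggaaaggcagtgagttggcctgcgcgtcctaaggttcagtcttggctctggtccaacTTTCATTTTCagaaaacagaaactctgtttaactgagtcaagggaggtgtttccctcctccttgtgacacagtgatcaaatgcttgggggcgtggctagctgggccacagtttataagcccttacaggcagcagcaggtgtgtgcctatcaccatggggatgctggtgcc
Isg15: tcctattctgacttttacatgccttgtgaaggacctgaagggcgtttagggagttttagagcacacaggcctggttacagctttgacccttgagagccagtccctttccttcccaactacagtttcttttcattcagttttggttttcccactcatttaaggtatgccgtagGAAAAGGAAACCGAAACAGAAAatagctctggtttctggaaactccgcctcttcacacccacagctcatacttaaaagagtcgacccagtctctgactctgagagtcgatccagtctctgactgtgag
Cxcl10: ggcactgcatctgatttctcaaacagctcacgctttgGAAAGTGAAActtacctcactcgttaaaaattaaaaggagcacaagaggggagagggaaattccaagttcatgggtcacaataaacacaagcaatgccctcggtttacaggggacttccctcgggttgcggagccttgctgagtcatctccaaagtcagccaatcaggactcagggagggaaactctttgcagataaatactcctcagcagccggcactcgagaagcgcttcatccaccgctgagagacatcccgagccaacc
Cxcl2: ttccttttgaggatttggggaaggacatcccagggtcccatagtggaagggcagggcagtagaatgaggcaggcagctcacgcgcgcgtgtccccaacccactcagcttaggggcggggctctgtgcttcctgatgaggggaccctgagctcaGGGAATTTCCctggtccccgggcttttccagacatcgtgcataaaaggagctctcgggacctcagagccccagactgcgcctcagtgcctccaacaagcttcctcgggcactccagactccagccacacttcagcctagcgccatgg
Il6: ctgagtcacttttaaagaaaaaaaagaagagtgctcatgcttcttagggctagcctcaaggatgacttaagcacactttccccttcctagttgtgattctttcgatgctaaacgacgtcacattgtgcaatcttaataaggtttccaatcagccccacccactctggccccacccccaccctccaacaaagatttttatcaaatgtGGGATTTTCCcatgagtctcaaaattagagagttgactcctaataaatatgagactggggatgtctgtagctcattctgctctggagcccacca

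The Ifit1 window holds 2 matches, which start 104 and 85 bases before the annotated start, and the Isg15 window holds 3 that overlap each other, from 78 bases before it. The match begins 120 bases before the start in Rsad2 and 213 bases before it in Cxcl10. The windows of Ifit2, Irf7, Tnf, Tnfaip3, Ptgs2 and Acod1, which also rose, held no match to either motif. Among all 27025 genes with a promoter entry, 1079 (3.99%) held the interferon motif on either strand. Of the 169 genes that were called and over 8-fold higher with the isotype control, 108 had a promoter entry, and 46 of these (42.6%) held it. The share was 9.17% of 589 genes called and from 2-fold to 8-fold higher, 3.18% of 6163 genes not called and 3.80% of 631 genes called and over 2-fold lower. The NF-kB motif was rarer, in 126 of all 27025 genes (0.466%) and in 6 of the 108 (5.56%). A match describes letters in this window and shows neither a bound site nor a cause.

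The total of estimated counts ran from 9292540 to 19376498 in the untreated libraries and from 5532225 to 9171892 in the isotype 4 h libraries, and mitochondrial genes took 2.65% to 4.31%. Mrc1, which encodes the mannose receptor and lies at chr2:14229392-14332057 on GRCm38 in the GENCODE annotation, had 3, 9 and 3 counts in the untreated libraries and 4, 0 and 0 counts with the isotype control and was too low to test. Ptprc, the leukocyte phosphatase CD45, was present in every library at 521 to 1211 CPM, the count relative to library size, scaled by the trimmed mean of M-values (TMM). The 10 macrophage markers sum to 24400 to 25400 CPM in the untreated libraries and 27700 to 31100 CPM with the isotype control, most of it from the lysozyme gene Lyz2. The 10 dendritic cell markers sum to 1500 to 1600 and 1550 to 1650 CPM, most of it from Itgax, which macrophages grown in GM-CSF also express. Summed markers of 3 granulocyte types were lower with the isotype control: neutrophil genes at 1820 to 2000 against 1260 to 1780 CPM, eosinophil genes at 610 to 808 against 332 to 415 CPM, and mast cell and basophil genes at 62.6 to 71.1 against 35.8 to 47.9 CPM. In bulk samples fewer cells of a type and less RNA per cell cannot be told apart. B cell, T and NK cell, erythroid and stromal markers sum to at most 24.7 CPM in any of the 6 libraries.

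The libraries differed in the level of GC-rich relative to GC-poor transcripts, also within the isotype 4 h group. Each library's GC tilt is the mean log2 deviation of the 10% of genes richest in GC minus that of the 10% poorest. It was 0.758, 0.0432 and 0.421 in the untreated libraries and -0.763, -1.46 and 0.581 in isotype 4 h replicates 1, 2 and 3. Replicate 3 carries library number 3356, out of the order of its group, and the 6 libraries numbered 3356 to 3361 lie between 0.539 and 0.772. Library 3355 and the other isotype 4 h libraries, 3353 and 3354, lie between -1.46 and -0.663. The median log2 fold change fell from 0.287 in the tenth of genes poorest in GC to -0.467 in the tenth richest. Whether this gradient is technical was not tested. With a correction for GC content in each library the medians lay between -0.0924 and 0.0349.

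**Figure D1:**
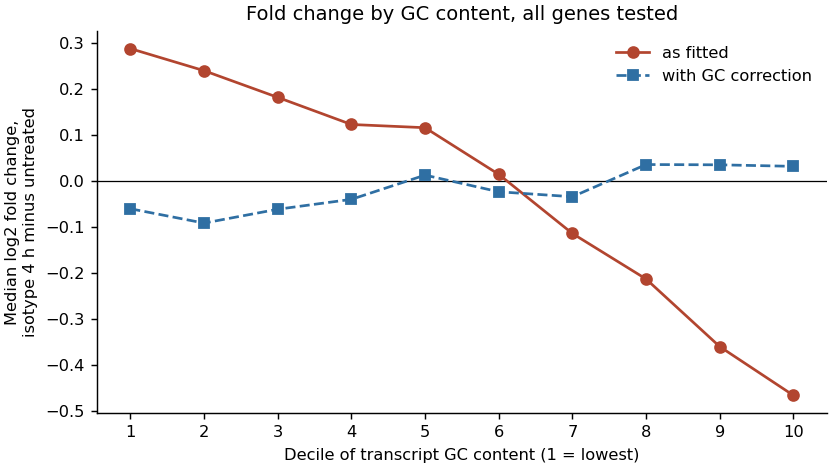
Median log2 fold change (isotype 4 h minus untreated) of all genes tested in each decile of transcript GC content, from the lowest (1) to the highest (10). The fitted medians (circles) fall from 0.287 to -0.467, and those with a GC correction in each library (squares) lie between -0.0924 and 0.0349.

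After 4 h with the isotype control, many interferon-stimulated genes, inflammatory cytokines and chemokines stood far above the untreated level. Most antioxidant enzymes tested were raised by less, with a list median log2 fold change of 0.978. Of the called genes of alternative activation, of the ATF4 and unfolded protein list and of class II antigen presentation, most stood below the untreated level. Of 13468 genes tested with edgeR's quasi-likelihood test, 4792 (35.6%) were called at an adjusted p under 0.05. Of these 2743 (20.4% of genes tested) were higher and 2049 (15.2%) were lower with the isotype control. Changes over 2-fold made up 985 of the higher (7.31%) and 857 of the lower calls (6.36%), and changes over 8-fold 169 (1.25%) and 58 (0.431%). With the GC correction 6016 genes (44.7%) were called, 2985 higher (22.2%) and 3031 lower (22.5%), and all 227 of the calls over 8-fold held in direction. In a fit with replicate 3 as the only isotype 4 h library, 2819 of 15041 genes (18.7%) were called, 1608 higher (10.7%) and 1211 lower (8.05%), and 194 of the 227 were called in the same direction. Of the 169 genes over 8-fold higher, 38 belong to the 3 interferon lists described next, which hold 70 of the 13468 genes. Counts of list members called are to be read beside the shares over all genes tested. These are 20.4% higher and 15.2% lower, and with the GC correction 22.2% and 22.5%. A list near these shares does not stand out from all genes.

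**Figure D2:**
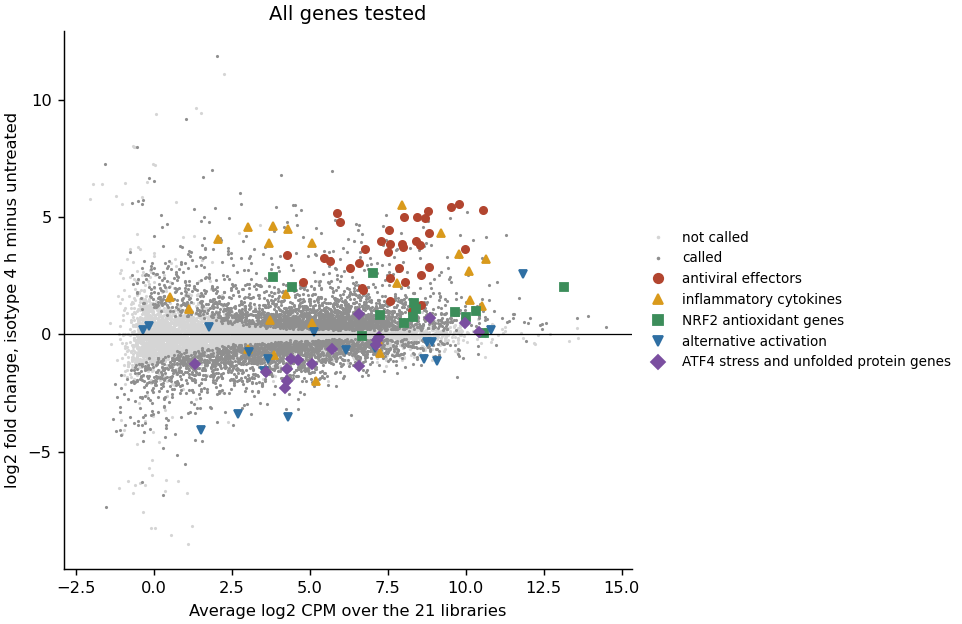
Log2 fold change (isotype 4 h minus untreated) against average log2 CPM over the 21 libraries for the 13468 genes tested, with members of 5 lists in colour. All 36 antiviral effectors lie above 0, while most alternative activation genes and most ATF4 and unfolded protein genes lie below it.

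**Figure D3:**
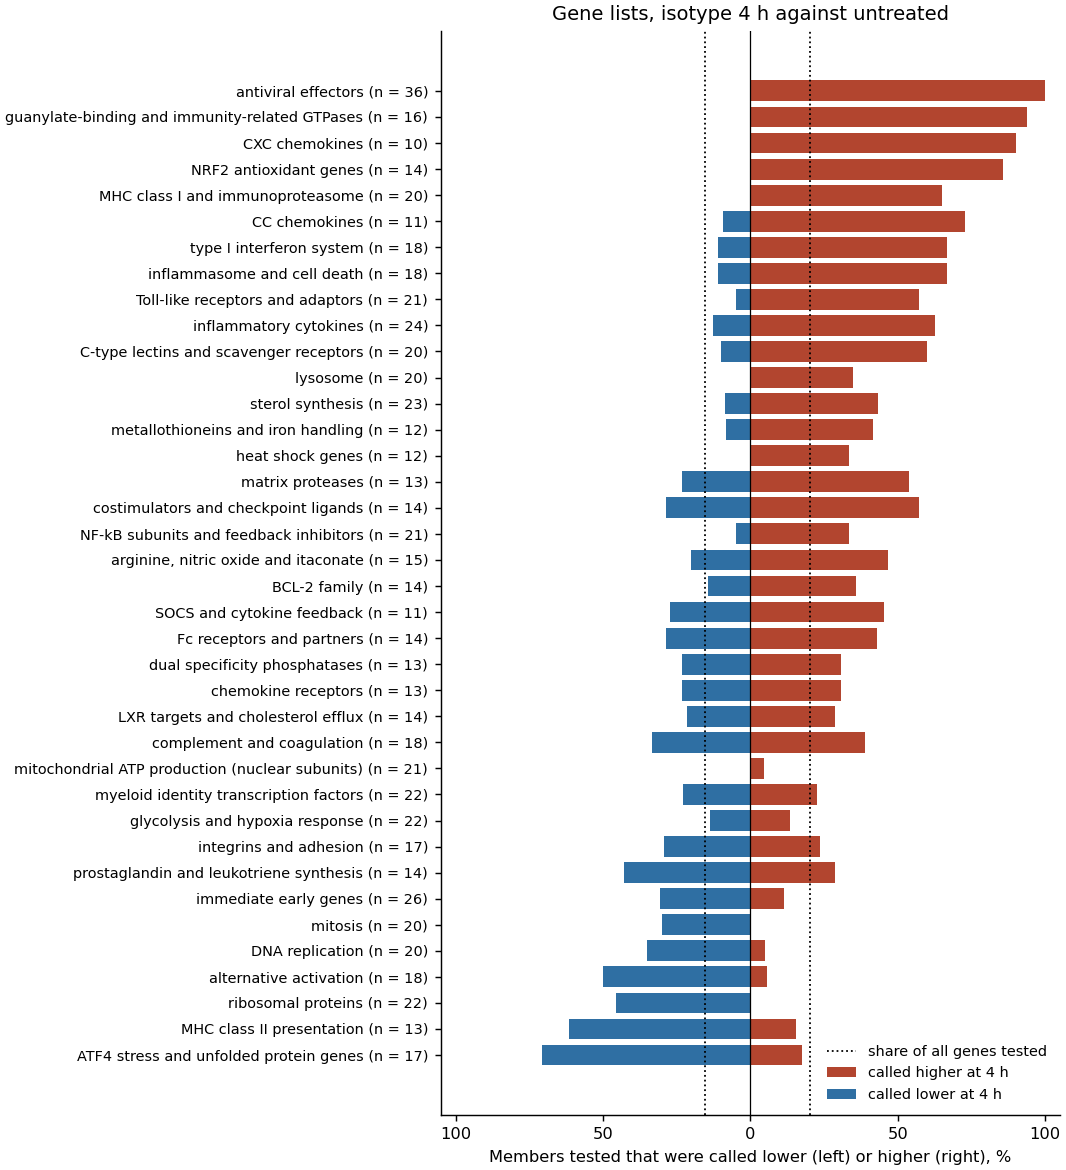
Share of the tested members of 38 gene lists called higher (right) or lower (left) with the isotype control at 4 h, with the number tested in brackets and the shares over all genes tested, 20.4% and 15.2%, as dotted lines. Antiviral effectors reach 36 of 36 on the right, and ATF4 and unfolded protein genes 12 of 17 on the left.

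Antiviral effectors, the proteins that bind viral RNA, block translation or trap virions, rose as a whole list. All 36 members tested were called higher, with a median log2 fold change of 3.63 beside -0.000335 over all genes tested, and all 36 were called again with the GC correction (median 3.50) and with replicate 3 alone (median 3.55). Ifit1, which binds viral RNA that lacks a host cap, stood at 27.6, 24.5 and 17.6 CPM in the untreated libraries and at 993, 1076 and 934 CPM with the isotype control. Every isotype library was above every untreated library, by 5.43 ± 0.20 (SE) on the log2 scale (edgeR adjusted p = 8.1e-13). Its neighbour Ifit2, of the same family, went from 28.3, 24.2 and 17.9 CPM to 1196, 1251 and 921 CPM (log2 fold change 5.58 ± 0.27). Rsad2, which encodes viperin, an enzyme that makes a chain-terminating nucleotide, stood at 55.1, 51.3 and 38.2 CPM against 1966, 2008 and 1805 CPM (5.32 ± 0.20). These 3 genes had little spread within the groups, and the rule that named them as most raised required groups that do not overlap. Isg15, a ubiquitin-like modifier, differed more between the isotype libraries, at 337, 212 and 488 CPM, against 19.7, 16.6 and 15.2 CPM untreated (4.33 ± 0.26). Usp18, the protease that removes Isg15 and dampens interferon signalling, stood at 25.9, 21.2 and 17.7 against 296, 272 and 296 CPM (3.73 ± 0.11, edgeR adjusted p = 9.5e-14). The smallest change in the list was that of Ifitm3, a membrane protein that hinders viral entry, with a log2 fold change of 1.0.

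Guanylate-binding proteins and immunity-related GTPases, which attack the vacuoles of intracellular microbes, moved in the same way. Of 16 tested, 15 were called higher and none lower, with a median log2 fold change of 3.47. The remaining gene, Gbp8, had a value of -0.40 and was called lower with the GC correction (-0.67, adjusted p = 7.2e-05). Iigp1, a GTPase that coats such vacuoles, was near the floor in the untreated libraries at 0.486, 0.460 and 0.572 CPM and at 25.4, 25.1 and 19.9 CPM with the isotype control (5.53 ± 0.32, edgeR adjusted p = 3e-10). Gbp2 stood at 89.5, 88.7 and 69.6 CPM and rose to 891, 847 and 705 CPM (3.30 ± 0.16). Neither gene's groups overlapped, which the rule that named Iigp1 as most raised required of it. In this list 9 of 10 genes with a promoter entry held the interferon motif, and among antiviral effectors 16 of 27 did.

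The proteins that make and relay type I interferon were less uniform. Of 18 tested, 12 were called higher and 2 lower, with a median of 0.736. Irf7, the factor that amplifies interferon production, stood at 10.8, 8.33 and 8.26 CPM untreated and at 108, 86.8 and 203 CPM with the isotype control (3.87 ± 0.31, edgeR adjusted p = 1.9e-08). Replicate 3 was the highest of the isotype libraries. Stat2, which relays the signal of the interferon receptor, went from 94.2, 83.2 and 65.0 CPM to 344, 303 and 346 CPM (2.03 ± 0.11). The ligand itself was barely detected. Ifnb1, interferon beta, had 4 counts over the 3 untreated libraries and 11 over the 3 isotype libraries, a ratio of 5.76 with an exact 95% counting interval from 1.71 to 24.8, and the groups overlapped. Its call (log2 fold change 2.37 ± 0.81, edgeR adjusted p = 0.029) was lost without isotype replicate 1 (adjusted p = 0.28), without untreated replicate 2 (0.13) and without untreated replicate 3 (0.092). Irf5, a factor downstream of Toll-like receptors, was the lowest of the list at -0.67 ± 0.22 (adjusted p = 0.024), with isotype libraries at 202, 155 and 345 CPM that overlapped the untreated 413, 323 and 384 CPM. That call was lost without either untreated replicate 1 or 3 and without either isotype replicate 1 or 2, with adjusted p from 0.062 to 0.093.

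Inflammatory cytokines rose for the most part: 15 of 24 tested were called higher and 3 lower, with a median log2 fold change of 1.95. Il6, the driver of the acute-phase response, stood at 1.85, 3.31 and 3.27 CPM untreated and at 149, 146 and 102 CPM with the isotype control (5.52 ± 0.28, edgeR adjusted p = 4.7e-11). Il1b, the precursor that inflammasomes cleave, went from 90.7, 116 and 107 CPM to 1035, 1108 and 768 CPM (3.21 ± 0.15). Tnf, an early inflammatory cytokine, stood at 162, 154 and 165 CPM and at 1135, 862 and 1174 CPM (2.72 ± 0.11). For all 3 genes every isotype library was above every untreated library, which the rule that named Il6 as most raised required of it. Il10, the cytokine that restrains macrophages, rose from 5 counts over the untreated libraries to 42 over the isotype libraries, a ratio of 17.6 with an exact 95% counting interval from 6.97 to 57.0. The antagonist of the interleukin-1 receptor, Il1rn, started high at 474, 551 and 562 CPM and reached 1251, 1327 and 1071 CPM (1.20 ± 0.11). Vegfa, the growth factor for blood vessels, fell from 107, 102 and 136 CPM to 24.9, 18.8 and 43.7 CPM (-1.97 ± 0.25, edgeR adjusted p = 5.6e-06).

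CXC chemokines, most of which attract neutrophils or T cells, had 9 of 10 tested called higher and none lower, with a median of 3.67. Cxcl5, a neutrophil attractant, had the highest log2 fold change of the genes named by rule, and its untreated level rests on few counts. It had 2 counts over the untreated libraries and 128 over the isotype libraries, a ratio of 134 with an exact 95% counting interval from 36.4 to 1120. Cxcl2, another neutrophil attractant, stood at 55.6, 55.1 and 64.7 CPM and at 574, 450 and 703 CPM (3.30 ± 0.21, edgeR adjusted p = 1.1e-09). Cxcl10, which attracts T cells and is induced by interferon, stood at 38.0, 36.6 and 26.6 CPM and at 494, 411 and 600 CPM (3.89 ± 0.16). Ppbp, a CXC chemokine of platelets that also served as a megakaryocyte marker, went from 5.34, 6.03 and 4.25 CPM to 67.2, 53.9 and 50.5 CPM (3.44 ± 0.18). It carried nearly all of the rise of the summed megakaryocyte markers, from 13 to 16.3 CPM to 54.7 to 70.8 CPM, while Itga2b, another marker of that lineage, was called lower (-1.53).

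CC chemokines, which attract monocytes and lymphocytes, had 8 of 11 tested called higher and 1 lower, with a median of 1.23. Ccl22, a ligand of CCR4 on T cells, was the most raised of them and already abundant, at 715, 801 and 738 CPM untreated and 4828, 4123 and 4396 CPM with the isotype control (2.57 ± 0.11). Ccl3, which attracts monocytes, went from 91.6, 100 and 97.6 CPM to 575, 486 and 535 CPM (2.46 ± 0.11), and Ccl5, which attracts T cells, from 51.5, 40.5 and 45.9 CPM to 224, 152 and 413 CPM (2.52 ± 0.30). Groups did not overlap in these 3. The monocyte attractant Ccl2 changed less, from 38.3, 40.4 and 34.2 CPM to 89.3, 96.9 and 79.1 CPM (1.23 ± 0.25). Among 13 chemokine receptors, 4 were called higher and 3 lower, and after GC correction 5 and 6. The highest was Ccrl2, an atypical receptor that presents chemerin (2.54 ± 0.09), and the lowest was Cxcr2, the neutrophil receptor for the CXC ligands above, at 8.65, 9.80 and 9.48 CPM against 1.72, 4.87 and 4.52 CPM (-1.33 ± 0.30). Cxcr2 is also a neutrophil marker, and the neutrophil marker list moved with it, with 6 of the other 11 members called lower and none higher. Its part in the Cxcr2 result was not tested. Ccr2, which brings monocytes out of bone marrow, was not called at -0.60 ± 0.33 (adjusted p = 0.17) but was called lower with the GC correction (-1.02, adjusted p = 0.0014), without isotype replicate 2 (-0.97, adjusted p = 0.04996) and with replicate 3 alone (-1.49, adjusted p = 0.026).

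NF-kB subunits, feedback inhibitors and some targets were measured as a further list. Of 21 tested, 7 were called higher and 1 lower, with a median of 0.307. With the GC correction 17 were called higher and 2 lower (median 0.62), and with replicate 3 alone 12 were higher and none lower. Cd40, the receptor for T cell help, was the most raised, from 29.4, 29.5 and 25.3 CPM to 360, 231 and 445 CPM (3.62 ± 0.21). Tnfaip3, the deubiquitinase A20 that ends NF-kB signalling, stood at 257, 295 and 296 CPM and at 610, 564 and 608 CPM (1.07 ± 0.08, edgeR adjusted p = 6.5e-09). Nfkbia, the inhibitor that NF-kB itself induces, stood at 357, 328 and 393 CPM and at 358, 290 and 564 CPM, so that the groups overlapped and the test gave no call (0.17 ± 0.17, adjusted p = 0.47). After GC correction it was called higher (0.40, adjusted p = 0.00051), as with replicate 3 alone (0.60, adjusted p = 0.0066). Nfkbid, a nuclear member of the inhibitor family, fell from 55.3, 45.3 and 49.2 CPM to 25.3, 21.5 and 35.1 CPM (-0.86 ± 0.18), a call lost with replicate 3 alone (adjusted p = 0.11).

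Among cytokine feedback genes 5 of 11 were called higher and 3 lower. Socs3, which blocks signalling from the interleukin-6 receptor, stood at 44.5, 30.9 and 36.7 CPM and at 97.7, 57.0 and 164 CPM (1.52 ± 0.31). Socs1, the brake on interferon receptors, was at 3.98, 1.47 and 2.62 CPM and at 6.17, 3.79 and 21.3 CPM, with overlapping groups and a call (2.06 ± 0.58, adjusted p = 0.01) that was lost without isotype replicate 3 (0.99, adjusted p = 0.17) and without untreated replicate 2 (1.71, adjusted p = 0.056). Il1r2, the decoy receptor that binds interleukin-1 without signalling, was among the most lowered of all genes, from 418, 476 and 418 CPM to 42.1, 45.8 and 34.4 CPM (-3.43 ± 0.15, edgeR adjusted p = 9.3e-12). Il1b and Il1r2 thus moved in opposite directions. Neither had overlapping groups, which the rule that named Il1r2 as most lowered required of it.

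Immediate early genes, the transcription factors that appear within minutes of many stimuli, were not raised as a list at 4 h. Of 26 tested, 3 were called higher and 8 lower, with a median of -0.373. With the GC correction Egr2 (0.48), Maff (0.71) and Gadd45b (0.88) were called higher as well. Gadd45a (0.0255) was then no longer called lower, and Klf10 (-0.34) was called lower. Fosb, a subunit of AP-1, was the lowest, at 15, 15 and 18.9 CPM untreated and 0.575, 0.180 and 1.16 CPM with the isotype control (-4.55 ± 0.53, edgeR adjusted p = 2.6e-06). Klf4 fell from 28.3, 20.3 and 23.9 CPM to 7.32, 9.02 and 8.46 CPM (-1.55 ± 0.14), and Atf3, a repressor induced by stress, rose from 253, 284 and 269 CPM to 475, 403 and 489 CPM (0.76 ± 0.09). Fos, Jun, Egr1, Ier2 and Dusp1 were not called, with log2 fold changes from -0.80 to -0.21. Without isotype replicate 3 Fos, Jun, Egr1 and Ier2 were called lower, at -0.64, -1.50, -0.57 and -1.98. The isotype 4 h libraries then left had GC tilts of -0.763 and -1.46. With the GC correction none of these genes was called, at -0.18, -0.48, 0.05 and -0.16 in the same order. With the GC correction and a replicate block, Jun was called lower (-0.51, adjusted p = 0.042). Fos was also called lower with RLE size factors (-0.42, adjusted p = 0.04988) and with libraries thinned to the smallest total (-0.48, adjusted p = 0.046), and Jun with a replicate block (-0.89, adjusted p = 0.047). Myc was lower (-0.95 ± 0.26, adjusted p = 0.0093) in a call that was lost without untreated replicate 1 (adjusted p = 0.063). It was also lost with only the 6 libraries in the fit (adjusted p = 0.078), and with replicate 3 alone the Myc value was -0.39. Among phosphatases of the DUSP family and their relatives, 4 of 13 were called higher and 3 lower, led by Dusp4 (2.03 ± 0.27) and Dusp5 (-1.18 ± 0.12), which both act on MAP kinases.

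**Figure D4:**
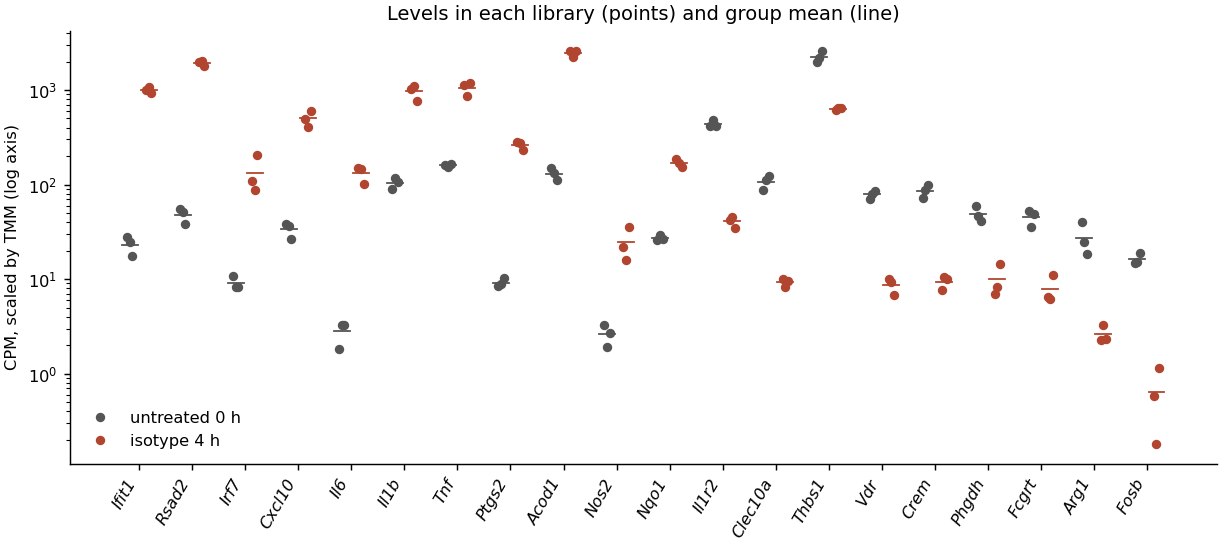
TMM-scaled CPM on a log axis of 20 genes in each untreated library (grey points) and each isotype 4 h library (red points), with the group mean as a line. The 11 genes on the left are higher and the 9 on the right lower in every isotype library than in every untreated library. The rule that named some of them as most raised or most lowered required this.

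Toll-like receptors and their adaptors were mostly higher, with 12 of 21 called higher and 1 lower, and a median of 0.463. With replicate 3 alone, 7 of 22 were called higher and none lower. Tlr1, which pairs with TLR2 to sense lipoproteins, went from 2.23, 2.76 and 2.04 CPM to 27.4, 32.1 and 22.4 CPM (3.50 ± 0.17). Tlr3, the sensor of double-stranded RNA, went from 2.04, 1.89 and 2.04 CPM to 21, 23.1 and 18.3 CPM (3.38 ± 0.25). Tlr7, which senses single-stranded RNA, rose from 54.6, 66.6 and 59.1 CPM to 137, 157 and 99.1 CPM (1.12 ± 0.19), a call lost with replicate 3 alone (0.67, adjusted p = 0.05017). The receptor for lipopolysaccharide, Tlr4, stood at 50, 56.7 and 56.6 CPM and at 52.0, 75.6 and 37.9 CPM, with no call (0.01 ± 0.21, adjusted p = 0.98). With the GC correction it was called lower (-0.38, adjusted p = 0.0064). Tlr9, the DNA sensor, was called lower (-0.56 ± 0.20, adjusted p = 0.036), and with the GC correction it was not (-0.14, adjusted p = 0.54). That call was also lost without replicate 1 or 2 of either group, with adjusted p from 0.056 to 0.14.

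Fc receptors bind the constant region of antibodies, and the labels do not say whether the control protein carries one. Of 14 Fc receptor genes and partners tested, 6 were called higher and 4 lower. Fcgrt, the neonatal Fc receptor that returns IgG from endosomes, fell from 53.0, 35.4 and 49.3 CPM to 6.46, 6.13 and 11 CPM (-2.52 ± 0.26, edgeR adjusted p = 5.4e-07). Fcgr2b, the inhibitory receptor for IgG, fell from 335, 407 and 375 CPM to 197, 193 and 158 CPM (-1.03 ± 0.10), and the activating receptor Fcgr3 from 396, 450 and 390 CPM to 246, 285 and 188 CPM (-0.78 ± 0.14). Neither receptor's groups overlapped. The activating receptors Fcgr1 (0.25 ± 0.10, adjusted p = 0.067, and called higher without untreated replicate 2 or isotype replicate 2) and Fcgr4 (-0.13 ± 0.22, adjusted p = 0.68) were not called. Trim21, the Fc receptor of the cytosol, is also induced by interferon, and it rose from 13.8, 14.2 and 14.6 CPM to 96.4, 97.8 and 85.6 CPM (2.71 ± 0.13).

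C-type lectins and scavenger receptors, the family group of the mannose receptor, had 12 of 20 called higher and 2 lower (median 0.75), and 11 higher and 5 lower with the GC correction (median 0.405). Clec4e, the receptor Mincle for glycolipids of mycobacteria, rose from 368, 405 and 439 CPM to 1927, 2140 and 1677 CPM (2.24 ± 0.15). Cd36, the scavenger receptor for oxidised lipoprotein, rose from 854, 1049 and 1061 CPM to 1799, 1922 and 1415 CPM (0.79 ± 0.15), a call lost with replicate 3 alone (0.47, adjusted p = 0.10). The inhibitory receptor Cd300lf fell from 202, 183 and 157 CPM to 99.8, 107 and 88.9 CPM (-0.88 ± 0.14). The lectins Clec10a and Cd209a, of the alternative activation list, and Asgr2, of no list, went down instead. Cd209a was also one of the dendritic cell markers, whose sum came mostly from Itgax. Clec10a, the galactose-type lectin, fell from 87.1, 113 and 123 CPM to 10.1, 8.30 and 9.62 CPM (-3.52 ± 0.21, edgeR adjusted p = 5e-10). Asgr2, a subunit of the related asialoglycoprotein receptor, fell from 64.4, 70.6 and 56.1 CPM to 7.04, 8.30 and 8.92 CPM (-2.98 ± 0.19). Cd209a, a homologue of DC-SIGN, fell from 13.4, 19 and 15 CPM to 1.15, 0.722 and 0.927 CPM (-4.06 ± 0.32). In all 3 the isotype libraries lay several-fold below the untreated libraries and close to each other. The rule that named Clec10a and Asgr2 as most lowered required groups that do not overlap.

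Alternative activation genes, which interleukin-4 raises in macrophages, had 9 of 18 called lower and 1 higher, with a median of -0.623. Arg1, the arginase that competes with nitric oxide synthase, fell from 39.8, 24.5 and 18.2 CPM to 2.30, 3.25 and 2.32 CPM (-3.40 ± 0.35, edgeR adjusted p = 6e-07). Klf4, described above, and Cd209a and Clec10a are members of this list. The gene of the list that rose was Ccl22. Chil3, a chitinase-like protein, stood at 2082, 2080 and 2724 CPM and at 2287, 2955 and 2513 CPM with no call (0.17 ± 0.17, adjusted p = 0.46). Retnla, a further hallmark of this state, was near the floor at 0.811 to 2.35 CPM and not called (0.20 ± 0.53, adjusted p = 0.80).

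Of 15 genes of arginine, nitric oxide and itaconate metabolism, 7 were called higher and 3 lower. Nos2, the inducible nitric oxide synthase, went from 3.30, 1.93 and 2.70 CPM to 22, 15.9 and 35.7 CPM (3.27 ± 0.28, edgeR adjusted p = 6.2e-08). Acod1, which makes itaconate from a citrate cycle intermediate, went from 148, 133 and 112 CPM to 2591, 2241 and 2575 CPM (4.24 ± 0.10, edgeR adjusted p = 7.6e-15). The groups were far apart in both, and in Nos2 replicate 3 was the highest. Prostaglandin and leukotriene genes were split, with 4 of 14 called higher and 6 lower. Ptgs2, the inducible cyclooxygenase, went from 8.55, 8.83 and 10.2 CPM to 283, 274 and 235 CPM (4.84 ± 0.21), and Alox5, the enzyme that starts leukotriene synthesis, fell from 67.6, 56.1 and 56.7 CPM to 17.9, 13.9 and 21 CPM (-1.76 ± 0.22).

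Class I antigen presentation, the route by which all nucleated cells show peptides to CD8 T cells, had 13 of 20 genes called higher and none lower, with a median of 0.811. After GC correction 19 were higher (median 1.12). Nlrc5, the transactivator of class I genes, rose from 19, 22.4 and 15.3 CPM to 172, 132 and 161 CPM (3.03 ± 0.12), and Tap1, a subunit of the peptide transporter, from 75.4, 56.1 and 56.5 CPM to 176, 150 and 298 CPM (1.73 ± 0.22). The light chain B2m rose from 1970, 2166 and 2075 CPM to 3033, 3446 and 3503 CPM (0.68 ± 0.09). The heavy chain H2-K1 overlapped between the groups (1159, 884 and 1087 against 1265, 927 and 2042 CPM) and was not called (0.44 ± 0.23, adjusted p = 0.16), while the GC correction gave a call (0.76, adjusted p = 9.4e-08), as did leaving out isotype replicate 2 (0.63, adjusted p = 0.036).

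Class II presentation, which shows peptides to CD4 T cells, went the other way: 8 of 13 tested were called lower and 2 higher, with a median of -0.509. H2-DMb2, part of the peptide exchange factor H2-DM, fell from 123, 118 and 118 CPM to 37.2, 25.1 and 33.7 CPM (-1.90 ± 0.14, edgeR adjusted p = 8.4e-09). H2-Ab1, a class II beta chain, fell from 2461, 1991 and 2318 CPM to 1108, 780 and 1960 CPM (-0.81 ± 0.28, adjusted p = 0.03). Its call was lost without untreated replicate 1 or 3 or isotype replicate 1 or 2, with adjusted p from 0.07 to 0.12. March1, the ubiquitin ligase that removes class II from the surface, rose from 64.7, 71.0 and 61.7 CPM to 119, 159 and 97.4 CPM (0.92 ± 0.16), a call lost with replicate 3 alone (0.52, adjusted p = 0.057). Ciita, the transactivator of class II genes, was not called (0.01 ± 0.23, adjusted p = 0.99), with 138, 108 and 87.5 CPM against 108, 80.5 and 145 CPM. The invariant chain Cd74 was not called either (-0.42 ± 0.20, adjusted p = 0.12) but was called lower without isotype replicate 3 (-0.66, adjusted p = 0.015). With the GC correction Cd74 was not called (0.0052, adjusted p = 0.98). Ciita was called higher with the GC correction (0.44, adjusted p = 0.0084).

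Among 14 costimulators and checkpoint ligands, 8 were called higher and 4 lower, with a median of 0.901. Cd274, the ligand PD-L1, rose from 253, 273 and 255 CPM to 942, 953 and 798 CPM (1.79 ± 0.10), while Cd86, a ligand of CD28, fell from 172, 212 and 199 CPM to 116, 140 and 99.9 CPM (-0.72 ± 0.15). Tnfsf14, a ligand of HVEM on T cells, was at 0.180 to 3.68 CPM over the 6 libraries and lower by a call (-1.8 ± 0.60, adjusted p = 0.027) that was lost without untreated replicate 2 or 3 or isotype replicate 2. Genes of inflammasomes and cell death had 12 of 18 called higher and 2 lower. Mlkl, which pierces the membrane in necroptosis, rose from 10.1, 10.7 and 9.24 CPM to 47.1, 53.2 and 45.4 CPM (2.27 ± 0.12). The kinase that activates it, Ripk3, fell from 34.5, 27.5 and 24.4 CPM to 14.8, 14.6 and 18.6 CPM (-0.84 ± 0.16). In the BCL-2 family 5 of 14 were called higher and 2 lower, led by the survival gene Bcl2a1b (1.24 ± 0.14), a member of a near-identical gene group in which reads can be split between copies.

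NRF2 antioxidant genes, which cells induce against oxidants and electrophiles, had 12 of 14 called higher and none lower, with a median of 0.978. The same 12 to 0 count was found with the GC correction (median 0.91) and with replicate 3 alone (median 0.946). Nqo1, a quinone reductase, rose from 25.9, 29.5 and 26.8 CPM to 184, 168 and 152 CPM (2.61 ± 0.13, edgeR adjusted p = 3.9e-11). Hmox1, the haem-degrading enzyme that NRF2 shares with other regulators, stood at 876, 827 and 1036 CPM and at 910, 687 and 1271 CPM, and was not called (0.07 ± 0.18, adjusted p = 0.80). Heat shock genes had 4 of 12 called higher and none lower, with Hsph1 the highest (0.84 ± 0.11), and the stress-induced Hspa1a was not called, at 1.29 to 11.1 CPM over the 6 libraries. In metal handling 5 of 12 were called higher and 1 lower. The zinc and iron importer Slc39a14 rose (1.16 ± 0.13) and the transferrin receptor Tfrc fell (-0.62 ± 0.14). The metallothionein Mt2 ranged from 15 to 166 CPM within the isotype libraries. Among the single libraries left out, Mt2 was called lower only without isotype replicate 3 (-2.35, adjusted p = 0.007). It was not called with the GC correction.

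Genes of the ATF4 stress response and the unfolded protein response were mostly lower as 1 list. Cells switch these responses on when amino acids run short or the endoplasmic reticulum is loaded. Of 17 tested, 12 were called lower and 3 higher, with a median of -1.05, beside 11 and 3 with the GC correction (median -0.679) and 7 and 2 of 18 with replicate 3 alone (median -0.782). Phgdh, the first enzyme of serine synthesis, fell from 59.9, 46.0 and 41.0 CPM to 7.04, 8.30 and 14.6 CPM (-2.27 ± 0.31, edgeR adjusted p = 1.3e-05). Mthfd2, a mitochondrial enzyme of folate metabolism, went against the list, from 47.4, 46.2 and 42.3 CPM to 81.0, 85.9 and 82.7 CPM (0.88 ± 0.09). Replicate 3 was the highest isotype library for Phgdh, and all 3 were below every untreated library. Genes of the unfolded protein response were mixed. Herpud1 (-1.35) and Dnajb9 (-0.61) were called lower, Hsp90b1 was called higher (0.48), and Hspa5 (0.11) and Pdia4 (-0.09) were not called. Xbp1 was called lower (-0.22), but not with the GC correction (-0.18, adjusted p = 0.13). Pdia4 was called lower with that correction (-0.19, adjusted p = 0.024). Atf4 itself was called lower (-0.47, adjusted p = 0.00015), but not with the GC correction (-0.09, adjusted p = 0.60).

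Sterol synthesis genes had 10 of 23 called higher and 2 lower, with a median of 0.219. Fdps, which makes farnesyl diphosphate, rose from 187, 187 and 150 CPM to 416, 373 and 398 CPM (1.18 ± 0.10). Among 14 genes of cholesterol efflux and LXR, 4 were called higher and 3 lower. Ch25h, whose hydroxylated cholesterol product is antiviral, rose from 7.77, 5.06 and 6.87 CPM to 30.3, 27.2 and 66.4 CPM (2.68 ± 0.30), and the exporter Abcg1 fell from 157, 147 and 147 CPM to 81.6, 74.0 and 119 CPM (-0.71 ± 0.17), a call lost with replicate 3 alone (-0.39, adjusted p = 0.25). Lysosomal genes had 7 of 20 called higher and none lower, with Lipa, the acid lipase, the highest (1.31 ± 0.10). Glycolysis and hypoxia genes had 3 of 22 called in each direction, and with the GC correction 9 were higher and 5 lower. Nuclear genes of mitochondrial ATP production had 1 of 21 called higher and none lower, and after GC correction none higher and 4 lower. With that correction 22.2% of all genes tested were called higher and 22.5% lower, so the 4 lower calls lie near the share over all genes.

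Genes of cell division were lower, by fewer calls. Of 20 DNA replication genes 7 were called lower and 1 higher (median -0.495), and of 20 mitosis genes 6 lower and none higher (median -0.702). With the GC correction these were 10 lower and none higher, and 12 lower and none higher. Mcm2, a subunit of the replicative helicase, fell from 19.1, 13.2 and 16.3 CPM to 7.61, 5.95 and 9.73 CPM (-1.04 ± 0.20), a call lost with replicate 3 alone (-0.77, adjusted p = 0.058). The proliferation marker Mki67 was not called, at 124, 108 and 80.0 CPM against 125, 168 and 89.8 CPM (0.29 ± 0.24, adjusted p = 0.36). Pcna, the clamp of DNA polymerase, was called higher by a small amount (0.22 ± 0.08, adjusted p = 0.032) and turned direction with the GC correction (-0.0953, adjusted p = 0.62). Its call was lost without untreated replicate 2 or 3 or isotype replicate 2 or 3. Ribosomal protein genes had 10 of 22 called lower and none higher (median -0.601), and 2 of 22 with replicate 3 alone (median -0.266).

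Factors of myeloid identity had 5 of 22 called higher and 5 lower, near the shares of 20.4% and 15.2% over all genes tested. Batf2, an interferon-induced partner of JUN proteins, rose from 1.46, 1.61 and 1.14 CPM to 10.3, 6.13 and 13.1 CPM (2.80 ± 0.27). Spi1, which encodes PU.1, was not called at 419, 279 and 349 CPM against 192, 116 and 434 CPM (-0.49 ± 0.37, adjusted p = 0.32), and here isotype replicate 3 was above every untreated library. Without it Spi1 was called lower (-1.18, adjusted p = 0.0074), and with the GC correction Spi1 was not called (-0.17, adjusted p = 0.38). Adhesion genes had 4 of 17 called higher and 5 lower. Vcam1, an endothelial and stromal ligand of integrins, rose from 11.2, 14.3 and 14.4 CPM to 64.8, 70.9 and 54.9 CPM (2.25 ± 0.18), and Itgae, the integrin chain CD103, fell from 13, 9.84 and 10.2 CPM to 1.15, 1.8 and 0.927 CPM (-3.12 ± 0.40). Complement and coagulation genes had 7 of 18 higher and 6 lower, and after GC correction 7 and 8. Cfb, factor B of the alternative pathway, rose from 37.9, 32.1 and 26.1 CPM to 309, 279 and 324 CPM (3.25 ± 0.14), and Thbs1, a matrix protein that activates TGF-beta, fell from 1962, 2155 and 2589 CPM to 615, 648 and 642 CPM (-1.82 ± 0.11). Of 13 matrix proteases and inhibitors 7 were called higher and 3 lower, from Mmp14 (1.57 ± 0.17) to Mmp9 (-1.74 ± 0.31).

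Among the genes that the rule named as most raised or most lowered, several belong to no list. The most raised of these were U90926, from 5 counts over the untreated libraries to 110 over the isotype libraries, a ratio of 46.1 with an exact 95% counting interval from 19.2 to 145, and Itgb8. Itgb8, an integrin chain that activates TGF-beta, stood at 0.389, 0.368 and 0.409 CPM and at 17.9, 13.3 and 14.8 CPM (5.29 ± 0.31, edgeR adjusted p = 3e-10). Besides Asgr2, described above, the most lowered were Flnc, Crem, Vdr, Trp53i11 and Hr. Flnc, an actin crosslinker, fell from 43.8, 28.8 and 28.3 CPM to 2.30, 1.98 and 4.98 CPM (-3.39 ± 0.32). Crem, a factor that responds to cyclic AMP, fell from 71.6, 88.3 and 99 CPM to 7.61, 10.6 and 10.1 CPM (-3.19 ± 0.17). Vdr, the vitamin D receptor, fell from 70.8, 80.1 and 85.5 CPM to 10.1, 9.38 and 6.84 CPM (-3.18 ± 0.22). Hr, a corepressor that binds that receptor, fell from 122, 93.6 and 102 CPM to 14.8, 7.76 and 23.2 CPM (-2.77 ± 0.32), and Trp53i11 by 2.94 ± 0.36. The rule that chose these 7 genes required a call and groups that do not overlap, so neither is a result about them. Over all genes tested, groups did not overlap for 3200 higher (23.8%) and 2512 lower (18.7%). Each of the 7 was called in the same direction with the GC correction.

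The next comparison asked whether the 4 h level was kept. It set isotype 12 h against isotype 4 h in the same fit and therefore shares the isotype 4 h libraries with the results above. No GC correction was applied to this comparison or to that with FcMR, and the GC tilt was 0.539 to 0.772 in the isotype 12 h libraries and -0.478 to -0.168 in the FcMR 4 h libraries, so its part in these counts was not tested. The test called 4737 of 13468 genes (35.2%), with 2143 raised (15.9%) and 2594 lowered (19.3%) between these times. Inflammatory cytokines came down, with 19 of 24 called lower and none higher (median -1.57). Il6 was at 13 ± 0.932 CPM (SD, n = 3) at 12 h (-3.34, edgeR adjusted p = 2.5e-08), Tnf at 145 ± 4.30 CPM (-2.86) and Ptgs2 at 27.0 ± 3.64 CPM (-3.29). Cxcl10 also fell, to 43.2 ± 3.81 CPM (-3.54). Antiviral effectors were divided, with 10 of 36 called higher and 16 lower at 12 h (median -0.213). Ifit1 was down to 395 ± 7.74 CPM (-1.34), still above its untreated level, whereas Irf7 rose on to 482 ± 41.9 CPM (1.86, edgeR adjusted p = 6.8e-05). Class I presentation had 13 of 20 called higher and none lower at 12 h, and Cfb reached 1333 ± 116 CPM (2.13). Nqo1 did not pass the test at 12 h (-0.10, adjusted p = 0.54), with 157 ± 21.8 CPM. Of the lowered genes, Il1r2 fell on to 6.43 ± 0.860 CPM (-2.69), and Vdr (-0.40, adjusted p = 0.16) and Crem (-0.04, adjusted p = 0.87) did not pass the test. Sterol synthesis genes came down, with 15 of 23 called lower and none higher, and Fdps at 170 ± 13.6 CPM (-1.22).

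FcMR at 4 h was compared with the isotype control at 4 h to see for which of these genes the control level differed from that with the receptor protein. It again shares the isotype 4 h libraries, and 2390 of 13468 genes (17.7%) were called, 1161 higher (8.62%) and 1229 lower (9.13%) with FcMR. Antiviral effectors had 33 of 36 called higher and none lower (median 1.04) and inflammatory cytokines 22 of 24 and none (median 2.39). Il6 stood at 1314 ± 23.6 CPM with FcMR (3.31 above the isotype control, edgeR adjusted p = 3.9e-08), Ptgs2 at 2399 ± 103 CPM (3.18), Nos2 at 228 ± 27.2 CPM (3.20) and Tnf at 5790 ± 284 CPM (2.45). For these genes the isotype level was the lower of the 2 treatments and above the untreated level. Ifit1 stood at 2356 ± 94.4 CPM (1.24) and Ifnb1, at 3.6 ± 0.641 CPM, was higher than with the isotype control by 2.79 (adjusted p = 0.0019). NRF2 antioxidant genes had 2 of 14 called higher and none lower, and Nqo1 did not pass the test (-0.12, adjusted p = 0.56). Of the genes lowered by 4 h, Il1r2 (0.15, adjusted p = 0.53), Clec10a (0.19, adjusted p = 0.60), Arg1 (-0.11, adjusted p = 0.89), Vdr (-0.21, adjusted p = 0.59), Crem (0.35, adjusted p = 0.18), Fcgrt (0.19, adjusted p = 0.69) and Phgdh (0.57, adjusted p = 0.22) did not pass the test either, which does not show that the 2 proteins left them at the same level.

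**Figure D5:**
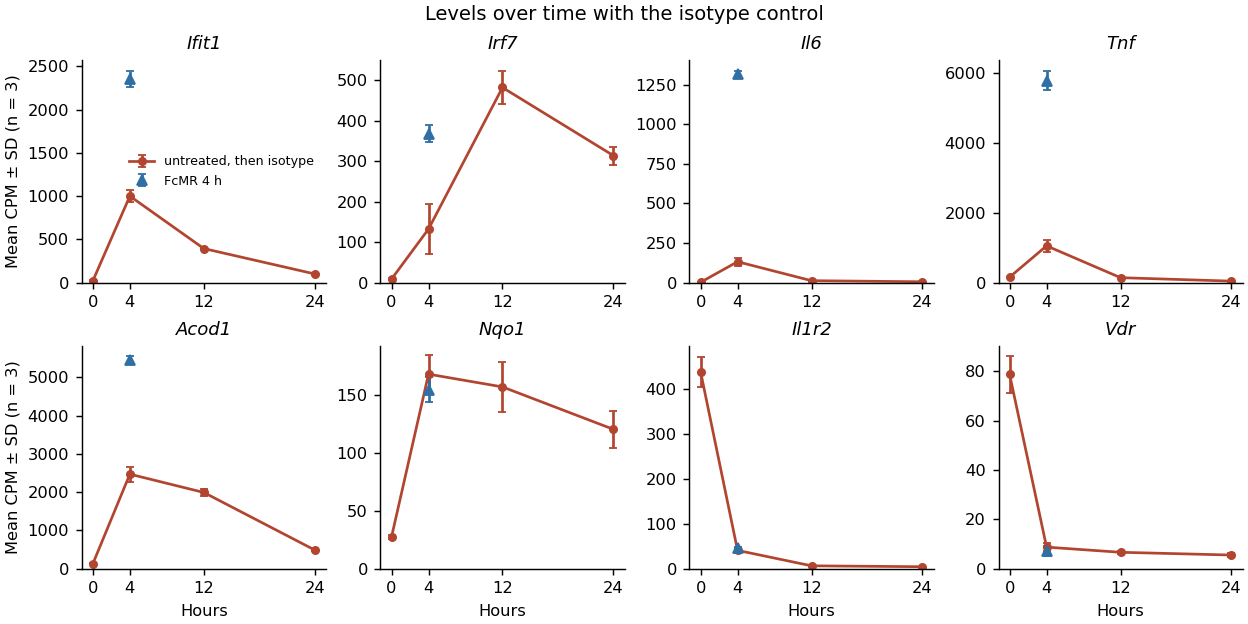
Mean TMM-scaled CPM ± SD (n = 3 libraries) of 8 genes in untreated cells (0 h) and with the isotype control at 4, 12 and 24 h (circles), with FcMR at 4 h as a triangle. Il6 and Tnf peak at 4 h with the isotype control and lie higher with FcMR, Irf7 peaks at 12 h, and Il1r2 falls at each step to 12 h.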

How the data were processed

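RNA of 21 libraries was sequenced, of which 6 enter the comparison of the isotype control at 4 h with untreated cells. The authors deposited estimated counts per gene, as whole numbers, and a normalized signal, in which each count is divided by a factor that differs between genes and libraries. The submitters' processing notes name CASAVA 1.8.2, kallisto 0.44.0, DESeq2 and mm10 (GRCm38), and the annotation release is not given in the sources used here. The kit does not mark strand, and 38 of the 130 genes named by rule overlap an annotated gene on the other strand, whose reads cannot be told apart from theirs.

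The counts were tested with edgeR 4.0.16 (R 4.3.3, limma 3.58.1), with TMM scaling, filterByExpr at a minimum count of 10 and a quasi-likelihood fit over all 21 libraries by group, so that all groups share the estimate of spread. Genes with a Benjamini-Hochberg adjusted p under 0.05 over all 13468 genes tested are called. Exact intervals of count ratios are at 95% and cover counting error only. The floor is 3 counts. Positions and transcript GC content come from GENCODE on GRCm38, and promoters from RefSeq. The GC correction fits a spline with 5 df on GC content in each library.

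Named genes were the 8 most raised and 8 most lowered called genes with average log2 CPM of at least 3 and groups that do not overlap, without predicted genes, the highest and lowest called member of each of 38 gene lists, and genes chosen by name. Gbp8, Ifitm3, Ppbp, Itga2b, Lyz2 and Itgax lie outside this rule and were named after their values were seen. The same holds for Herpud1, Dnajb9, Hsp90b1, Hspa5, Pdia4, Xbp1, Atf4, Egr2, Maff, Gadd45a, Gadd45b and Klf10. Some genes that the rule names are not reported here. The lists hold 727 genes with 10 marker lists included, of which 722 had a row and 693 were tested. Members, lists and comparisons were chosen with earlier results of these data known. Alternatives were RLE scaling, other filters, DESeq2 1.42.0, the authors' factors, only the 6 libraries, the GC correction, libraries thinned to the smallest total, a replicate block and each replicate left out. On data simulated for isotype 4 h against untreated (13139 genes), 24%, 76%, 96% and 98% of genes changed 1.5-fold, 2-fold, 4-fold and 8-fold were recovered. Only genes above a minimum mean count were changed there, each gene had the spread expected at its level, and no GC tilt was put in. The shares may therefore be too high for genes with few counts and for these libraries.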

Additional observations from a re-analysis of the deposited data

How the results depend on the processing

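The 4792 calls for isotype 4 h against untreated (2743 higher, 2049 lower) became 2881 (1695 and 1186) with only the 6 libraries in the fit, where fewer libraries inform the spread, and 2819 (1608 and 1211) with isotype replicate 3 alone, a setting chosen after seeing the data that assumes the lone library varies like the other groups. Without the 2 libraries out of title order 3503 genes were lower, 1737 of them over 2-fold. Leaving out 1 replicate gave 3784 to 6251 calls, 2183 to 3060 higher and 1541 to 3191 lower, and over 2-fold 917 to 1086 higher and 683 to 1665 lower. The highest of these, 6251, 3191 and 1665, came without isotype replicate 3, and the cause was not tested. The share of calls that were higher was 57.2%, and 45.5% without a filter, 49.6% with the GC correction, 49.0% without isotype replicate 3 and 47.8% without the 2 libraries out of title order. With the GC correction 4068 of the 4792 calls (84.9%) were kept. DESeq2 called 4773 genes.

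Same-numbered samples were not paired by the labels, and their deviations correlated at -0.228, 0.428 and 0.115. With a replicate block 5072 genes were called (2795 higher, 2277 lower), and with the block and the GC correction 6178, of which 3035 were higher and 3143 lower.

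Pcna went from 0.22 to -0.0953 with the GC correction and -0.1101 with the block as well, and Tlr4 from 0.01 to -0.381 and -0.3856. Of the 130 genes named by rule 108 were called, 85 of them under every alternative. Depth limits Ifnb1, Cxcl5, Il10 and U90926, which had at most 5 counts over the untreated libraries.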
